A study of Rattus norvegicus with 125 samples.

Results

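The sodium-phosphate cotransporters and the klotho co-receptor were followed along the rat nephron. The set comprised 7 of the 17144 gene symbols in the deposited tables, chosen by name: Slc34a1, Slc34a2 and Slc34a3 (type II cotransporters), Slc20a1 and Slc20a2 (type III cotransporters), Kl (klotho) and Fgfr1 (a receptor for fibroblast growth factors). Each was represented by 1 RefSeq transcript in every table, and 7 of 7 passed the filter on low values (at least 1 RPKM in at least 4 libraries; RPKM divides a gene's reads by transcript length and by the size of the library). The tubule libraries were made from tubules dissected by hand from the collagenase-digested left kidneys of male Sprague-Dawley rats weighing 200 to 250 g and fed normal chow. They cover 14 segments, here in nephron order: the proximal tubule segments S1, S2 and S3 (7 libraries each), the descending thin limb of short loops (SDL, 10), the long-loop descending thin limb of outer medulla (LDLOM, 9) and of inner medulla (LDLIM, 4), the thin ascending limb (tAL, 7), the thick ascending limb of medulla (mTAL, 7) and of cortex (cTAL, 7), the distal convoluted tubule (DCT, 8), the connecting tubule (CNT, 6) and the cortical, outer medullary and inner medullary collecting duct (CCD, 11; OMCD, 7; IMCD, 8). Digestion took 25 min for cortex, 50 min for outer medulla and 90 min for inner medulla, so zone and digestion time cannot be told apart. A further 5 libraries came from glomeruli. Another 8 libraries came from CCD of 5-week-old rats that all carried a minipump delivering DDAVP (a vasopressin analogue) at 5 ng/hr, of which 4 received a water load (50 mL/day for 4 days) and 4 were controls with normal water (25 mL/day).

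Filtered phosphate is taken back from the tubular fluid mainly in the proximal tubule, through sodium-coupled cotransporters of the brush border. Slc34a1 (NaPi-IIa) and Slc34a3 (NaPi-IIc) are the cotransporters known for this role in rodents, whereas Slc34a2 (NaPi-IIb) is best known from intestine and lung. Parathyroid hormone and the bone hormone Fgf23 lower the amount of the proximal cotransporters at the membrane. Klotho, a membrane protein known for its abundance in the distal tubule, joins Fgfr1 to form the receptor for Fgf23, and its ectodomain can be shed into blood and urine.

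The tubule libraries held between 1438 and 8574 genes at 1 RPKM or more, and 14 held fewer than 2500. Relative depth could be recovered for 93 libraries and spanned a 14.24-fold range, and the absolute depth is unknown. Fewer cells of a type and less RNA per cell cannot be told apart in such libraries. Apart from the water-load experiment, where each library is labelled with its own rat, nothing in the labels says which libraries came from the same rat, so p-values measure only the spread between these libraries. Defining markers were present in the segments as follows: Aqp1 reached 1 RPKM in all libraries of S1 to LDLIM, Slc12a1 in all mTAL and cTAL libraries, Slc12a3 in all DCT libraries and Aqp2 in all libraries of CNT, CCD, OMCD and IMCD. Pvalb, another DCT marker, was listed at 0 in all 8 DCT libraries. Libraries 1 and 2 of tAL went against their label: the summed RPKM of 3 thin limb markers was 2.15 and 3.33 in them, while that of 5 endothelium markers was 2388 and 2778, against 0.859 to 18.0 in the other 5 tAL libraries. Podxl, a sialomucin of podocytes and endothelium, stood at 189 and 88.7 RPKM in these libraries, but the podocyte gene Nphs1 stayed below 1 RPKM in all tAL libraries. SDL library 9 had the lowest thin limb marker sum of SDL, 12.5 RPKM, beside 118 RPKM of thick ascending limb markers. Values that rest on tAL libraries 1 and 2 are given with and without them. Aqp2 also reached 1 RPKM in most libraries of other segments, such as 5 of 7 in S1 (median 1.66 RPKM) and 7 of 8 in DCT (median 12.2 RPKM), against a median of 4240 RPKM in CNT. Markers of leukocytes summed to medians of 892 RPKM in mTAL, 828 RPKM in S2, 789 RPKM in cTAL, 680 RPKM in S1 and 623 RPKM in DCT, and to 0.533 to 325 RPKM in the other 9 segments. The part of other cells in the values below was not tested.

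The deposited data hold the same libraries in 2 tables, of which only 1 drew on polyadenylation-site data. The table with sites is used unless the other is named. For each library the correlation between tables, over genes that are not independent of each other, was 0.913 to 0.966. Among 9595 genes averaging at least 1 RPKM in either table, 51.2% lay within 1.1-fold and 8.11% differed by over 4-fold. Slc34a3, Slc20a1 and Slc20a2 had nearly the same values in both, with median ratios (with sites over without) of 0.999, 0.999 and 0.983. The ratio was 0.791 for Slc34a1 (0.782 to 1.06), 1.17 for Slc34a2 (0.887 to 3.91) and 2.04 for Fgfr1 (1.02 to 16.3), each over libraries at 1 RPKM in both tables. Kl stood apart from the other members: 64 libraries reached 1 RPKM with the sites and 5 without. Over the 5 libraries at 1 RPKM in both tables its median ratio was 49.0 (4.97 to 55.1). The ratio of its means over all tubule libraries was 474. That is another measure than the median ratios above, and DCT library 1, with 10723 RPKM, weighs heavily in it.

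**Figure D1:**
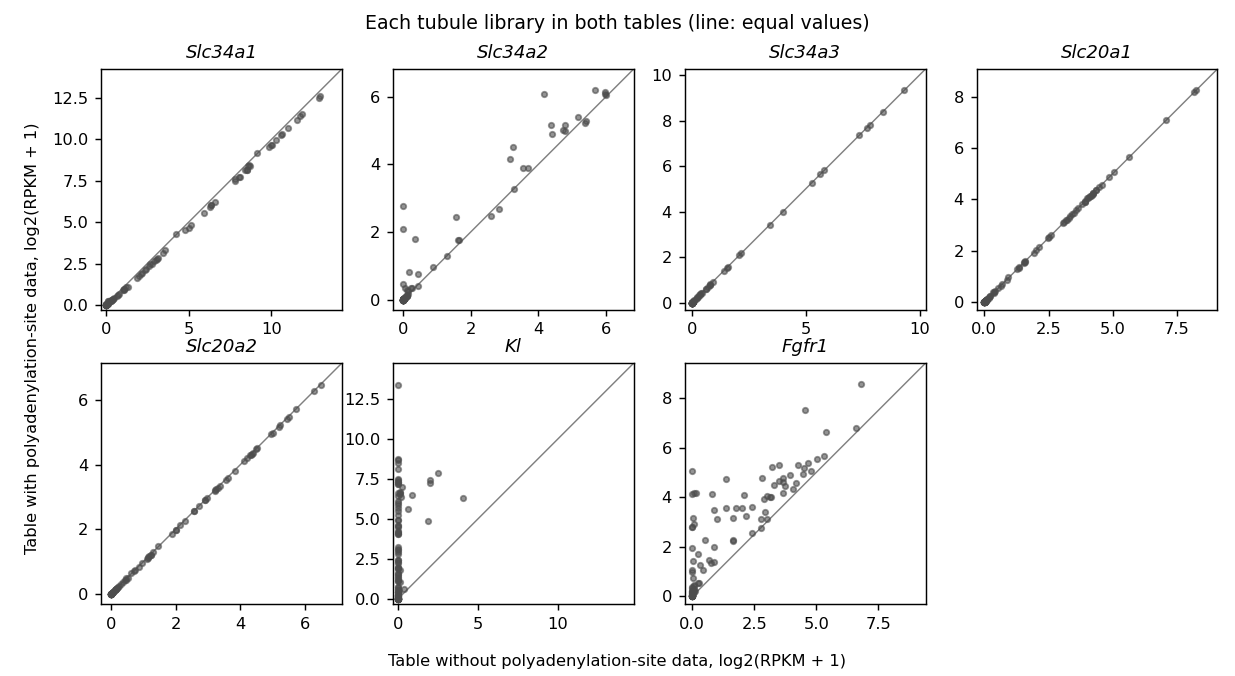
Each point is 1 tubule library, with its log2(RPKM + 1) in the table with polyadenylation-site data on the y axis and in the table without on the x axis. Slc34a3, Slc20a1 and Slc20a2 lie on the line of equal values, Fgfr1 lies mostly above it, and nearly all Kl points stand at or near 0 on the x axis.

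Slc34a1 was the most abundant of the transporters and its highest levels were in the proximal tubule. It ranged from 178 to 5843 RPKM in S1 (median 333), from 348 to 6369 RPKM in S2 (median 1242) and from 64.1 to 1635 RPKM in S3 (median 215). Every one of the 21 proximal libraries was above 50 RPKM, whereas in the other 11 segments the median was 0.194 RPKM and 78 of 84 libraries lay below 50 RPKM. In these 11 segments 21 libraries were listed at 0. The fitted difference between S1 to S3 and the other 11 segments was +8.07 ± 0.52 on the log2(RPKM + 1) scale (SE; limma, adjusted p = 2.38e-27; table without sites +8.25). Such differences understate the change of genes at low values.

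S1, S2 and S3 could not be ordered by Slc34a1. The difference S3 minus S2 was -1.82 on the log2 scale (95% interval -4.04 to 0.39; limma, adjusted p = 1), with an exact permutation p of 0.0455 that was not adjusted for the 13 neighbouring comparisons. The next segments stood well below S3. In SDL the median was 0 RPKM, against 215 RPKM in S3, a log2 difference of -7.05 ± 1.04 (limma, adjusted p = 6.50e-08). In LDLOM the median was 0.21 RPKM, against 215 RPKM in S3, a log2 difference of -6.40 ± 1.07 (limma, adjusted p = 1.91e-06). The ranges overlapped in both comparisons, through single high libraries of the thin limbs.

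Outside the proximal tubule 6 of 84 libraries had Slc34a1 at 50 RPKM or more. LDLOM library 1 held 2329 RPKM, SDL library 1 and OMCD library 7 held 286 RPKM each, and cTAL library 5, SDL library 8 and LDLOM library 9 held 73.2, 63.7 and 60.1 RPKM. The summed RPKM of 9 proximal marker genes, which was at least 47.5 in every S1 to S3 library, was 52.8 in OMCD library 7, 54.2 in cTAL library 5, 84.5 in SDL library 8 and 104 in LDLOM library 9, but 2.55 in LDLOM library 1 and 0.186 in SDL library 1. Another 7 libraries outside the proximal tubule were above 47.5 without reaching 50 RPKM of Slc34a1: mTAL library 3 had a sum of 358 and 46.3 RPKM of Slc34a1, LDLOM library 3 had a sum of 272 and 0.315 RPKM, and the other 5 had sums of 48.6 to 76.6 and at most 0.0233 RPKM. High proximal markers and high Slc34a1 were thus not always found in the same libraries. Markers of other cells were also present in the libraries with the lowest proximal sums: LDLOM library 1 held 551 RPKM of intercalated cell markers, against a median of 0.302 RPKM in LDLOM, and SDL library 1 held 143 RPKM of thick ascending limb markers and 138 RPKM of endothelium markers. LDLOM library 1 and SDL library 1 were among the 14 with fewer than 2500 genes. Without LDLOM library 1 the LDLOM minus S3 difference was -7.54, and without SDL library 1 the SDL minus S3 difference was -7.80. The part of proximal and other cells in these values was not tested.

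The sequences just upstream of Slc34a1 and Slc34a3, the members that were higher in the proximal tubule, are shown to compare what the 2 genes have in front of their start. Each is the 250 bases before the annotated start, 5′ to 3′ on the gene's strand, from RefSeq (GRCr8): chr17:9238984-9239233 (minus strand) for Slc34a1 and chr3:28447998-28448247 (minus strand) for Slc34a3. The search covered both strands. It looked for GTTAAT, an HNF1 half-site, part of the site bound by this transcription factor of liver and proximal tubule. A TATA box was read as the letters TATAAA exactly. A GC box was read as GGGCGG and an E-box, the last motif, as the palindrome CACGTG. No match overlapped another, and matches are in capitals.
Slc34a1: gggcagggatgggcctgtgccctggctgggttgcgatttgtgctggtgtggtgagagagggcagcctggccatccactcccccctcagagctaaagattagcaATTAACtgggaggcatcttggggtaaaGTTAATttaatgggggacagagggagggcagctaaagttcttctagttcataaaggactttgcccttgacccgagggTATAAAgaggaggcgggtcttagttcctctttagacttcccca
Slc34a3: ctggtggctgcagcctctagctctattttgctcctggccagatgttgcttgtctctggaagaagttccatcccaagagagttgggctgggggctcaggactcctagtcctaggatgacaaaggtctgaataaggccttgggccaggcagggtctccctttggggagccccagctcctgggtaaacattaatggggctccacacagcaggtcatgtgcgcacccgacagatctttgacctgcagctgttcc
The Slc34a1 window held 2 HNF1 half-sites, which begin 147 bases (antisense) and 120 bases (sense) before the start, and 1 TATA box 43 bases before it. The Slc34a3 window held none of the 4 motifs, nor did that of Slc34a2. Of 33469 such windows in the reference, 6.45% hold an HNF1 half-site and 12.9% a TATA box on either strand. These matches are a description of the letters and show no binding.

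Slc34a3 was found in some proximal libraries and was near 0 elsewhere. In S1 it ranged from 0.529 to 642 RPKM (median 49.1), in S2 from 0 to 162 RPKM (median 3.51) and in S3 from 0 to 204 RPKM (median 0). The 7 S1 values spread over 3 orders of size, with 226, 335 and 642 RPKM in libraries 2, 7 and 6. In S3, 5 libraries were listed at 0, another at 0.342 RPKM, and library 5 alone stood at 204 RPKM; that library also held 451 RPKM of thick ascending limb markers, against 2.39 to 83.4 RPKM in the other 6 S3 libraries. Outside the proximal tubule 4 of 84 libraries reached 1 RPKM, with a highest value of 15 RPKM in SDL library 1, and Slc34a3 was listed at 0 in all LDLIM and tAL libraries. The difference between S1 to S3 and the other segments was +3.01 ± 0.35 on the log2 scale (limma, adjusted p = 2.33e-12). That fit shared 1 spread over all segments. The SD of the log2 values was 3.45, 2.98 and 2.88 in S1, S2 and S3, at most 1.26 in the other segments (SDL) and 0 in LDLIM and tAL. The printed SE and p thus understate the spread of the proximal libraries.

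Within the proximal tubule Slc34a3 was lower at the far end. S3 had a median of 0 RPKM, against 49.1 RPKM in S1, a log2 difference of -4.10 ± 0.76 (limma, adjusted p = 5.85e-05; table without sites -4.10). It was the only member called in that comparison, in which 1.88% of all genes tested were called. The exact permutation p was 0.0321 and the ranges overlapped through S3 library 5; without that library the difference was -5.19. With S1 and S3 fitted alone the adjusted p was 0.0568. The intermediate steps, S2 minus S1 at -2.15 and S3 minus S2 at -1.95, did not pass (limma, adjusted p = 0.395 and 0.487). Slc34a1 differed by -0.95 between S3 and S1 (limma, adjusted p = 1).

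Slc34a3 made up a small part of the type II RPKM in most proximal libraries. As a share of the sum of Slc34a1 and Slc34a3, it came to 5.65, 7.60, 0.158, 1.12, 2.88, 9.90 and 54.6% in the 7 S1 libraries. In S3 the largest share was 11.1%, with a share of 0% in 1 S2 library and 5 S3 libraries. S1 library 7 was the only proximal library with more Slc34a3 (335 RPKM) than Slc34a1 (279 RPKM). Without the sites the 2 values were nearly level there, at 335 RPKM for Slc34a3 and 340 RPKM for Slc34a1, a share of 49.7%.

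By the count of members, 2 of 7 were called higher in S1 to S3 than in the other 11 segments (Slc34a1 and Slc34a3) and 0 lower, where 6.87% of the 11078 genes tested were called higher, 15.4% lower and 22.3% in either direction. A call needed an adjusted p under 0.05 and a log2 difference of at least 1. The median log2 difference was +0.12 over the 7 members and -0.36 over all genes tested. Under quantile normalization the latter moved by 0.27 to -0.09, and the calls over all genes were 1008 higher and 939 lower, instead of 761 higher and 1711 lower. In the table without sites the same 2 members were called, and 21.1% of 10662 genes. Relative to the median of all genes, Slc34a1 stood at +8.43 and Slc34a3 at +3.37 on the log2 scale.

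**Figure D2:**
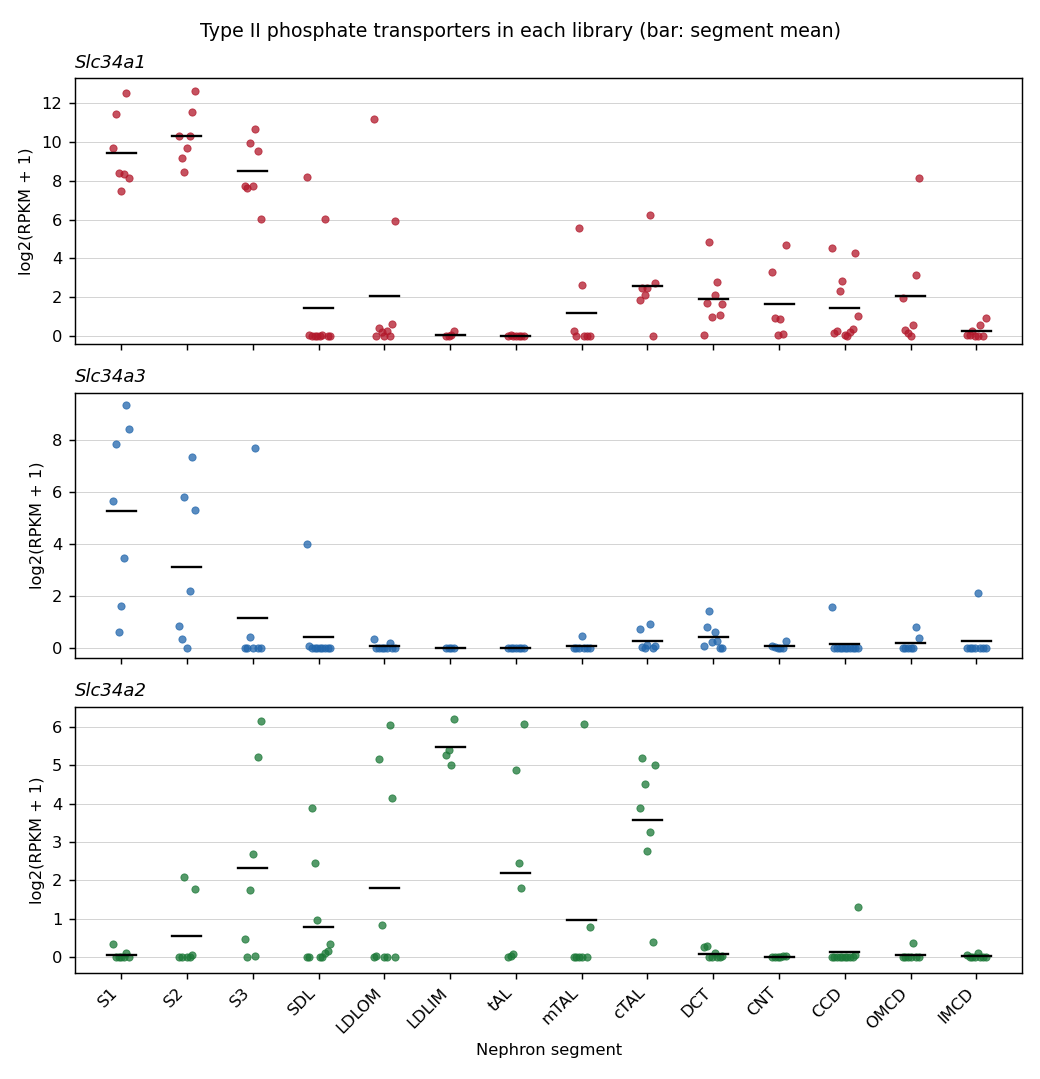
The type II transporters Slc34a1, Slc34a3 and Slc34a2 in each library, as log2(RPKM + 1) on the y axis, with the 14 segments in nephron order on the x axis. Points are libraries and black bars are segment means; Slc34a1 is high in all S1, S2 and S3 libraries and in single libraries elsewhere, Slc34a3 mostly in S1 and S2, and Slc34a2 in all LDLIM and most cTAL libraries.

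Slc34a2 had a different course. Its highest level was in LDLIM, with 37.7, 40.9, 30.9 and 72.5 RPKM in the 4 libraries, and its next highest in cTAL, from 0.323 to 35.1 RPKM (median 13.8). All 4 LDLIM libraries and 6 of 7 cTAL libraries were above 5 RPKM. In S3, LDLOM, tAL and mTAL a few libraries were far above their own medians (36.3 and 69.4 RPKM in S3; 34.7 and 65.6 RPKM in LDLOM; 28.5 and 66.8 RPKM in tAL; 66.0 RPKM in mTAL), where the medians of these segments were 2.37, 0.0226, 2.46 and 0 RPKM. The 69.4 RPKM stood in S3 library 7, which held 3606 RPKM of thin limb markers, against 51.8 to 347 RPKM in the other S3 libraries. Its proximal marker sum of 720 RPKM was the lowest of S3. The part of thin limb cells in this value was not tested. From DCT to IMCD only 1 of 40 libraries reached 1 RPKM, CCD library 11 with 1.46 RPKM. In S1 the highest value was 0.263 RPKM.

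In the tests, LDLIM was above LDLOM for Slc34a2 by 3.66 ± 0.88 on the log2 scale (limma, adjusted p = 0.00716; table without sites +3.73), the only member called there (2.71% of all genes called). That call was lost with quantile normalization (+2.05, adjusted p = 0.252) and in 3 of the other alternatives. DCT was below cTAL by a log2 difference of -3.49 ± 0.76 (limma, adjusted p = 0.0028), again the only member called (0.849% of all genes). The 8 DCT libraries, from 0 to 0.214 RPKM, did not overlap the 7 cTAL libraries, from 0.323 to 35.1 RPKM (exact permutation p = 0.000155, the smallest that these group sizes allow). Without the sites the groups overlapped, since 1 cTAL library was listed at 0. The differences cTAL minus mTAL and tAL minus LDLIM (-3.27) missed the threshold (limma, adjusted p = 0.0812 and 0.0644). Both passed in some alternatives, cTAL minus mTAL in 3 of 12 and tAL minus LDLIM in 5 of 12, in each case counting the exact permutation test, whose p was not adjusted; over the others the adjusted p ran from 0.0127 to 0.446 and from 0.00699 to 0.910. Without tAL libraries 1 and 2, which held 0.00774 and 0.0286 RPKM, tAL minus LDLIM was -2.40 (limma, adjusted p = 0.383). The annotation of GRCr8 places another gene, LOC120096615, over part of Slc34a2, and reads of the overlap cannot be told apart here.

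Slc20a1 and Slc20a2, type III transporters known in most tissues as housekeeping phosphate carriers, were scattered over the nephron. Slc20a1 reached 1 RPKM in 46 tubule libraries and at least 1 library of every segment. Its highest segment by mean log2 value was tAL, from 0.308 to 134 RPKM (median 15.7), and its lowest S3, from 0 to 1.56 RPKM (median 0.307). The 134 RPKM stood in tAL library 1, which carried endothelium markers. Without tAL libraries 1 and 2 the highest segment was LDLIM, with a mean log2 level of 2.77, ahead of tAL with 2.63 (median 5.11 RPKM). SDL held its highest single values, 303 RPKM in library 1 and 287 RPKM in library 8. Slc20a2 reached 1 RPKM in 44 libraries, again in every segment. Its mean log2 level was highest in SDL, from 0 to 75.6 RPKM (median 9.66), and its highest single value was 87.2 RPKM in CCD library 3, where the segment median was 1.46 RPKM. In no pair of neighbouring segments was either gene called (limma, 13 comparisons); at an unadjusted p under 0.05 there were 2 values for Slc20a1 and 1 for Slc20a2, and by the exact permutation test 0 and 0.

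Both type III genes were measured lower in the proximal tubule without passing the test. Slc20a1 had a median of 0.307 RPKM in S1 to S3 and 0.328 RPKM in the other segments, a log2 difference of -0.87 (95% interval -1.82 to 0.07; limma, adjusted p = 0.158). Slc20a2 had a median of 0.101 RPKM in S1 to S3 and 0.604 RPKM in the other segments, a log2 difference of -0.73 (95% interval -1.61 to 0.15; limma, adjusted p = 0.209). In CCD, 8 of 11 libraries had Slc20a2 at 1 RPKM or more, and in mTAL 1 of 7. GRCr8 places Smim19 and LOC120097400 over part of Slc20a2.

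**Figure D3:**
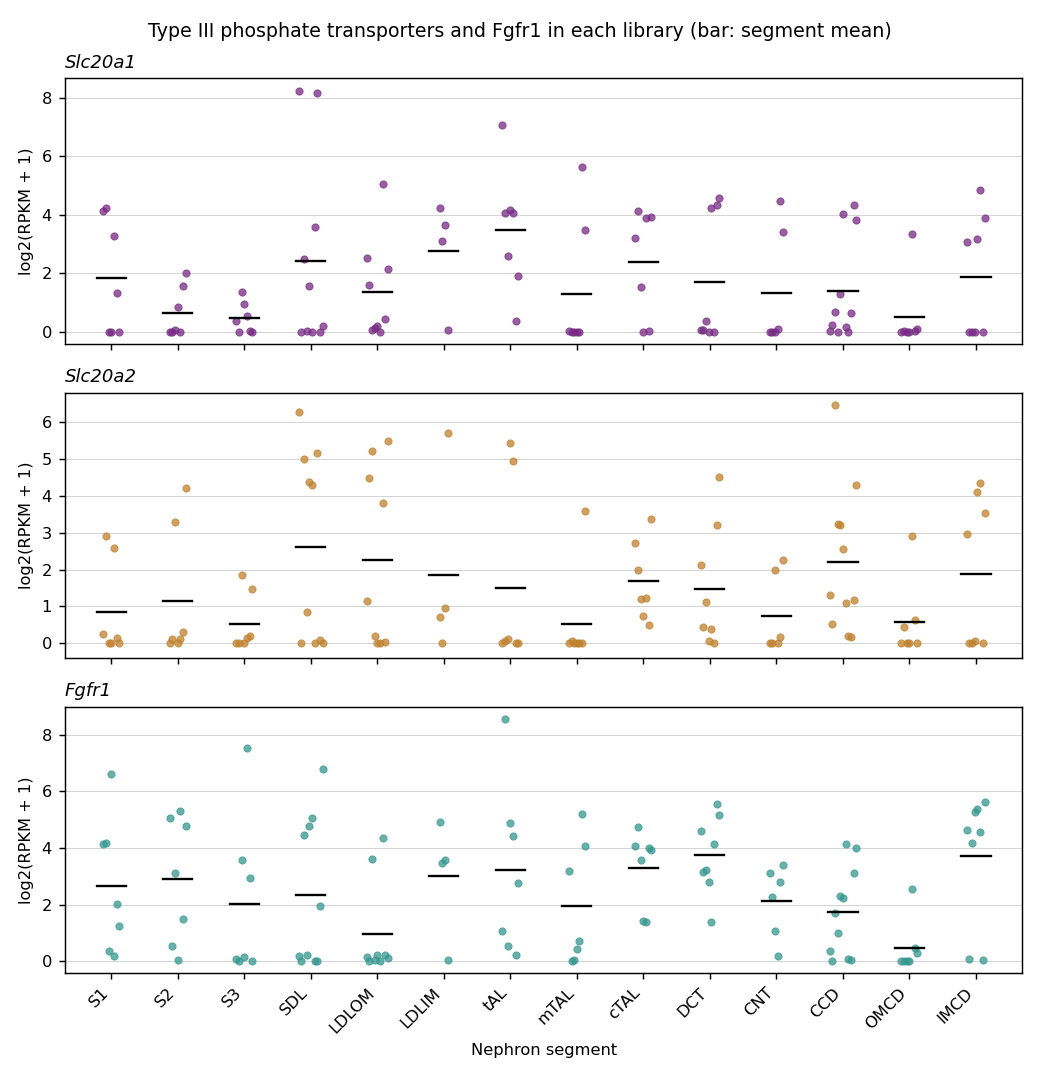
Slc20a1, Slc20a2 and Fgfr1 in each library, as log2(RPKM + 1) on the y axis, with the 14 segments in nephron order on the x axis. Points are libraries and black bars are segment means; within nearly every segment the points of each gene run from 0 to several log2 units, so that the means lie close to each other beside that spread.

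Counting which of the 5 transporters had the highest RPKM in each library gave a simple map in the table with sites. Slc34a1 led in 6 of 7 S1 libraries, 7 of 7 S2 libraries and 6 of 7 S3 libraries. Slc34a2 led in 4 of 4 LDLIM and 5 of 7 cTAL libraries. Without the sites Slc34a1 led in all 21 proximal libraries and Slc34a2 in 3 of 4 LDLIM and 4 of 7 cTAL libraries, while in CNT Slc34a1 led in 4 of 6 libraries instead of 2. With the sites, Slc20a2 led in 5 of 11 CCD libraries, and in SDL Slc20a1 and Slc20a2 led in 3 of 10 libraries each. No transporter reached 1 RPKM in 22 tubule libraries, among them 4 of 8 IMCD, 3 of 7 OMCD and 3 of 11 CCD libraries.

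Kl, the klotho co-receptor, was highest in the distal convoluted tubule and connecting tubule in the table with sites. The 8 DCT libraries ranged from 2.80 to 10723 RPKM (median 164), and the 6 CNT libraries from 43.3 to 426 RPKM (median 121). DCT library 1, with 10723 RPKM, stood far above the other DCT libraries, the next of which had 272 RPKM. In cTAL Kl ranged from 1.29 to 102 RPKM (median 56.8), in CCD from 0.082 to 176 RPKM (median 6.83), in mTAL from 0 to 77.8 RPKM (median 27.8) and in OMCD from 0.00846 to 51.1 RPKM (median 7.24). The summed RPKM of 4 connecting tubule markers ran from 3.33 to 3245 in CCD (median 195), against a median of 4224 in CNT. It reached 190 in cTAL, 85.7 in mTAL and 72.4 in OMCD. The part of connecting tubule cells in the Kl values of these segments was not tested. In the thin limbs and IMCD most libraries lay below 1 RPKM, with the exceptions of 358 RPKM in LDLOM library 1, 17.1 RPKM in tAL library 1, 15.7 RPKM in SDL library 8 and 5 others at 1.16 to 2.74 RPKM.

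All 14 DCT and CNT libraries were at 1 RPKM or more, and their median was 152 RPKM, against 1.46 RPKM in the other 12 segments. The log2 difference was +4.72 ± 0.65 (limma, adjusted p = 1.31e-08), and the mean log2 levels of DCT and CNT were above those of each of the other 12 segments (exact permutation p = 0.011 over segment means, the smallest that they allow). Without DCT library 1 the difference was +4.28 (adjusted p = 2.43e-07; over the libraries left out singly, adjusted p from 9.69e-10 to 2.43e-07). By member, 2 of 7 were called in this comparison: Kl higher and Slc34a2 lower (-1.45 ± 0.43, limma, adjusted p = 0.0243; medians of 0.00323 RPKM in DCT and CNT and 0.0135 RPKM in the other segments; exact permutation p = 0.242 over segment means). Over all genes tested 4.29% were called, 3.3% higher and 0.984% lower, and the median log2 difference was -0.35 over the 7 members and +0.13 over all genes. Under quantile normalization that of all genes moved by -0.19, and the calls were 366 higher and 262 lower, instead of 366 higher and 109 lower; Kl then stood at +4.58 relative to the median of all genes.

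The steps at the edges of the Kl domain were estimated with wide intervals and did not pass after adjustment. DCT minus cTAL was +2.47 on the log2 scale (95% interval 0.21 to 4.74; limma, adjusted p = 0.899) and CCD minus CNT was -3.27 (95% interval -5.49 to -1.05; limma, adjusted p = 0.75; exact permutation p = 0.0122, not adjusted for the 13 neighbouring comparisons). Against DCT, 9 of the other 13 segments were called lower for Kl, and CNT, cTAL, S2 and S1 were not. DCT was picked as the highest Kl segment from these same data, so the direction was fixed and this count is a description.

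Kl was also present in the proximal tubule, where Slc34a1 and Slc34a3 were highest. It ranged from 0.562 to 412 RPKM in S1 (median 7.86), from 0.717 to 154 RPKM in S2 (median 48.4) and from 0.099 to 23.6 RPKM in S3 (median 3.80). In S1 and S2, 6 of 7 libraries each reached 1 RPKM, and in S3, 4 of 7. The proximal difference from the other 11 segments was +0.62 (95% interval -0.45 to 1.69; limma, adjusted p = 0.385), and -0.10 in the table without sites, the opposite sign. The summed RPKM of 4 connecting tubule markers had medians of 38.2 in S1, 5.62 in S2 and 0.441 in S3. Its highest values were 248 in S1, 238 in S2 and 3.01 in S3. Klk1, which is among these markers, reached 1 RPKM in 5 S1, 2 S2 and 0 S3 libraries. The part of distal cells in the proximal Kl values was not tested.

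The Kl profile rested on the table with sites. In the table without them, 80 tubule libraries were listed at 0, and 43 libraries at 1 RPKM or more with the sites were listed at exactly 0 without. The highest value was 15.6 RPKM in mTAL, followed by 4.60 RPKM in DCT, and all 6 CNT libraries lay at or below 0.122 RPKM. mTAL took the highest mean log2 level there, 0.85, ahead of DCT with 0.57. The DCT and CNT difference was +0.18 on the log2 scale (95% interval -0.14 to 0.50; limma, adjusted p = 0.666), where 4.04% of 10662 genes were called. Of all genes averaging at least 1 RPKM in either table, 89 had a mean over 100-fold higher with the sites, Kl among them. No source used here says how the site data were applied.

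**Figure D4:**
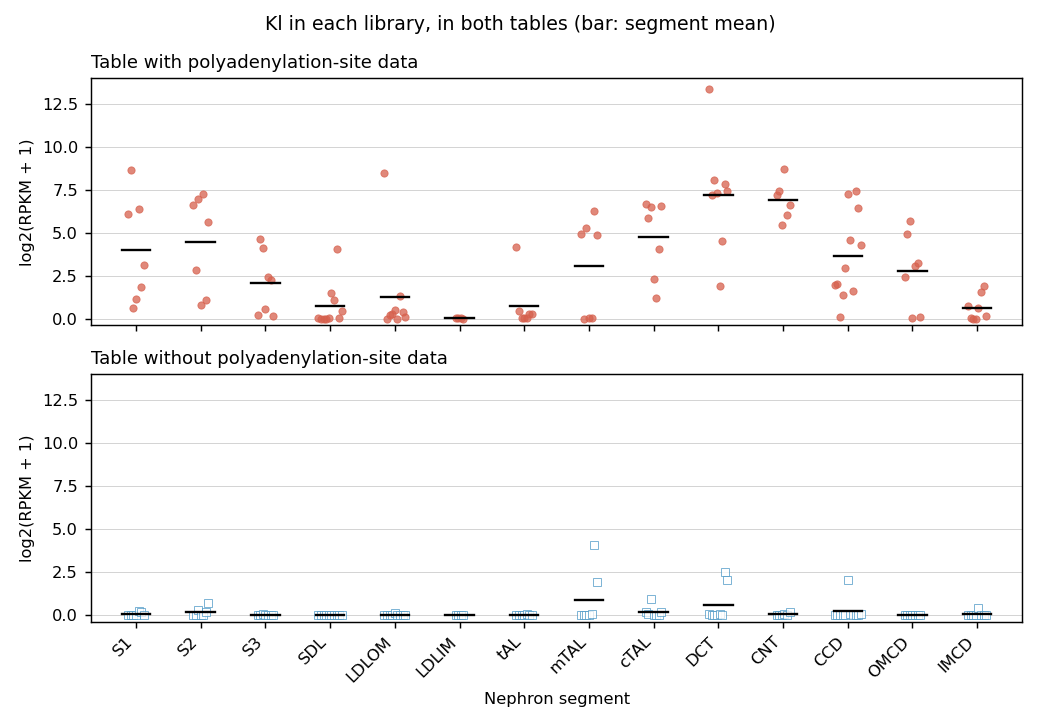
Kl in each library, as log2(RPKM + 1) on the y axis, by segment in nephron order on the x axis, in the table with polyadenylation-site data (top) and without (bottom). Points are libraries and black bars are segment means; with the sites DCT and CNT have the highest means, and without them only a few mTAL, DCT and CCD libraries rise above 1 on this scale.

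The 250 bases before the Kl start are shown for contrast with the Slc34 windows above (RefSeq, GRCr8, chr12:5325753-5326002, plus strand; 5′ to 3′, with GC boxes in capitals from the same search of both strands).
Kl: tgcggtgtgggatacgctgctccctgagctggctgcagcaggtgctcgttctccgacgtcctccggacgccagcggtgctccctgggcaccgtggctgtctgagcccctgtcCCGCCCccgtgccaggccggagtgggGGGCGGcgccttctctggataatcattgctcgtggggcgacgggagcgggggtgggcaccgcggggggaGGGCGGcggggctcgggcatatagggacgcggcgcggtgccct
This window held 3 GC boxes, beginning 138 (antisense), 112 and 43 bases before the start, and none of the other 3 motifs; 30.5% of the 33469 windows hold at least 1 GC box. Its GC content was 73.2%, above 95.1% of the windows, against 68.8% for Slc34a2, 56.4% for Slc34a3 and 53.2% for Slc34a1; the Slc34a2 window was above 90.2% of the windows. No reference sequence of the files' build was used, and the windows for Slc20a1, Slc20a2 and Fgfr1 were not matched.

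Fgfr1, the receptor that klotho converts to an Fgf23 receptor, was found in all 14 segments. DCT and IMCD had its highest mean log2 levels. DCT ranged from 1.61 to 45.7 RPKM (median 12.5) and IMCD from 0.021 to 49.0 RPKM (median 23.4), while OMCD, the lowest, ranged from 0 to 4.83 RPKM (median 0.0143). All DCT and cTAL libraries and 5 of 6 CNT libraries reached 1 RPKM. The highest single values were 375 RPKM in tAL library 2 and 184 RPKM in S3 library 5, in segments with medians of 5.87 and 0.102 RPKM. Of these, tAL library 2 held 2778 RPKM of endothelium markers and 3.33 RPKM of thin limb markers, and S3 library 5 held 451 RPKM of thick ascending limb markers and 65.8 RPKM of DCT markers beside 878 RPKM of proximal markers. Without tAL libraries 1 and 2 the highest tAL value was 28.7 RPKM. IMCD was above OMCD by 3.25 ± 1.06 (limma, adjusted p = 0.039; exact permutation p = 0.00855), the only member called there, where 7.47% of all genes were called. Of the calls over all genes 718 were higher and 110 lower in IMCD, and the median log2 difference of all genes was +0.55. The Fgfr1 call did not hold in the table without sites (+2.40, limma, adjusted p = 0.0939). It was also lost in 4 of the other alternatives (adjusted p 0.0306 to 0.198 over all of them), among them quantile normalization (+2.34, limma, adjusted p = 0.0678). The same held with any of 6 single OMCD libraries left out (adjusted p up to 0.0674). IMCD libraries were not left out in turn.

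Kl and Fgfr1 were both at 1 RPKM or more in 47 tubule libraries, Kl alone in 17, Fgfr1 alone in 18 and neither in 23. Both were present in 8 of 8 DCT, 7 of 7 cTAL, 5 of 6 CNT, 5 of 7 S1 and 5 of 7 S2 libraries. In IMCD, Fgfr1 without Kl was the usual state (5 of 8 libraries), and in OMCD Kl without Fgfr1 (4 of 7). In the table without sites both were present in 5 libraries and Fgfr1 alone in 38. That table also moved the highest Fgfr1 level to IMCD, and 43 libraries reached 1 RPKM against 65 with the sites. GRCr8 places LOC120097583 within Fgfr1.

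**Figure D5:**
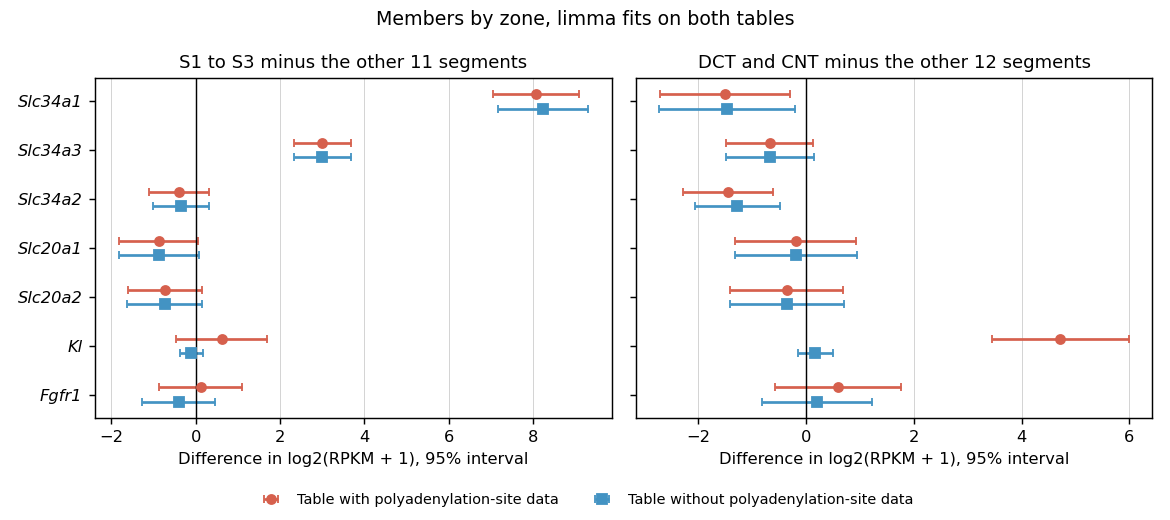
Differences of the 7 members on the log2(RPKM + 1) scale, for S1 to S3 minus the other 11 segments (left) and for DCT and CNT minus the other 12 segments (right). Points are limma estimates and bars 95% intervals, in red circles for the table with polyadenylation-site data and blue squares for the table without; the widest gap between the tables is that of Kl on the right, at +4.72 with the sites and +0.18 without.

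Across the 13 pairs of neighbouring segments, 5 of 91 member values were called. Besides those given for Slc34a2 and Fgfr1, these were the Slc34a1 differences SDL minus S3, where 7.52% of all genes were called, and LDLOM minus S3, where 5.25% were called. In the remaining 8 pairs no member was called by limma. The share of all genes called was 0.596% for S2 against S1, 0.885% for S3 against S2, 0.758% for tAL against LDLIM and 6.34% for mTAL against tAL. It was 1.03% for cTAL against mTAL, 2.15% for CNT against DCT, 0.0722% for CCD against CNT and 1.3% for OMCD against CCD. Of the 56 member values in these 8 pairs, 8 had an unadjusted p under 0.05 (limma). Over the 11078 genes tested, 440 (S2 against S1) to 2329 (mTAL against tAL) had such a p in each of these pairs. By the exact permutation test, which was run for members only, 5 of the 56 values had a p under 0.05. When the 14 segments were put in order of mean log2 level for each member, 1 of the 91 steps between neighbours in that order was called, between S3 and cTAL for Slc34a1. That order, and so the highest segment of each member, came from these same data, which fixed the direction of these differences in advance. Segments called lower than the highest numbered 11 of 13 for Slc34a1 (highest in S2), 11 for Slc34a2 (LDLIM) and 12 for Slc34a3 (S1). They numbered 9 for Kl (DCT), 1 for Slc20a1 (tAL, with libraries 1 and 2 included) and 0 for Slc20a2 (SDL) and Fgfr1 (DCT). These counts are a description, and the share over all genes was not worked out for them.

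Other genes of phosphate handling were taken from a list of 19, of which 18 are in the tables and 15 passed the filter. In S1 to S3, 4 of the 15 were called higher and 2 lower, where 6.87% of all genes tested were called higher and 15.4% lower. Pdzk1, a scaffold of the brush border, had a median of 257 RPKM in S1 to S3, against 0.385 RPKM in the other segments (+6.54 ± 0.36, limma, adjusted p = 4.93e-32). Slc9a3r1 (NHERF1), a scaffold that binds NaPi-IIa, had a median of 282 RPKM in S1 to S3 and 27.9 RPKM in the other segments (+3.66 ± 0.52, limma, adjusted p = 6.08e-09). Pth1r, the parathyroid hormone receptor, had a median of 123 RPKM in S1 to S3 and 0.359 RPKM in the other segments (+4.48 ± 0.41, limma, adjusted p = 2.41e-17). Cyp24a1, which inactivates vitamin D hormone, rose by 1.71 ± 0.16 (limma, adjusted p = 4.94e-17). Adam10, a sheddase of klotho, fell by 1.37 and Stc1 (stanniocalcin) fell by 1.84 on the log2 scale. The median log2 difference over the 15 genes was +0.02, beside -0.36 over all genes.

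Cyp24a1 was highest in the middle of the proximal tubule. It ranged from 1.48 to 68.1 RPKM in S2 (median 17.9), while medians were 0 RPKM in S1 and 0.814 RPKM in S3. The differences S2 minus S1 (+2.89) and S3 minus S2 (-3.00) were called (limma, adjusted p = 2.70e-09 and 2.57e-10), where 0.596% and 0.885% of all genes were called. With the sites Cyp24a1 reached 1 RPKM in 12 libraries, every S2 library among them. The segment where it was high was thus enough for it to pass the filter. Its calls, that for S1 to S3 included, are therefore no separate support, and their spread rests mostly on libraries under 1 RPKM. Without the sites 1 library reached 1 RPKM, so Cyp24a1 did not pass the filter there and was not tested. Cyp27b1, which makes the hormone, reached 1 RPKM in 1 library and Fgf23 in 0.

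Pth1r was also high beyond the proximal tubule. It ranged from 4.59 to 270 RPKM in cTAL (median 132), against 0 to 7.68 RPKM in mTAL, a log2 difference of +5.37 ± 0.90 (limma, adjusted p = 1.99e-05; 1.03% of all genes called). It was lower in CNT, with a median of 10.8 RPKM, against 50.2 RPKM in DCT (-3.04 ± 0.91, limma, adjusted p = 0.0492). In DCT and CNT together, 2 of the 15 genes were called higher, Vdr and Pth1r, and 0 lower. Over all genes tested, 3.3% were called higher there and 0.984% lower. Vdr, the vitamin D receptor, had a median of 84.0 RPKM in DCT and CNT, against 0.507 RPKM in the other segments (+4.05 ± 0.49, limma, adjusted p = 1.68e-10). Like Kl, Vdr differed between the tables, with 56 libraries at 1 RPKM with the sites and 19 without. Stc1 had medians of 27.8 RPKM in CNT and 0.0291 RPKM in DCT (+4.26 ± 0.75, limma, adjusted p = 2.59e-05). The 5 genes Pdzk1, Slc9a3r1, Pth1r, Adam10 and Stc1 kept their proximal calls in the table without sites.

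The genes whose 14 segment means were most like those of each member were found by Pearson correlation on the log2 scale, as a description over segments that share libraries and depth. For Slc34a1 they were Pfn3 (0.999), Glyat, Fbp1, Pck1 and Acsm2a (0.984 or more). Pfn3 lies next to Slc34a1 in GRCr8; it averaged 1072 RPKM in S2 with the sites and 41.0 RPKM without, and how reads were divided between the neighbours was not tested. For Slc34a3 they were Fam151a, Tex36, Stra6, Nox4 and Ces2g (0.979 to 0.992), and for Slc34a2 Dock11, Tlr2, Igsf3, Map3k14 and Map2 (0.812 to 0.864). For Kl they were Eva1a, Klk1, Mlycd, Vdr and Vegfb (0.884 to 0.932). The values for Slc20a1 (led by Ddx51, 0.913), Slc20a2 (Nupl1, 0.854) and Fgfr1 (Ppap2c, 0.909) were over profiles with little spread between segments.

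The 5 glomerulus libraries gave a comparison outside the tubule, with no test. Slc20a1 was present in all 5 (23.7, 44.4, 26.7, 22.3 and 24.4 RPKM), as was Fgfr1 (51.3, 39.8, 53.9, 42.9 and 80.2 RPKM). Slc34a1 was low in them, at 3.48, 20.8, 7.60, 1.41 and 16.5 RPKM, and Kl lower still, at 6.48, 3.41, 1.19, 0.130 and 0.422 RPKM. The glomerulus values of the table without sites were not used, since they correlated with the first table at 0.0079 to 0.0152.

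The water-load experiment asks how the CCD changes when vasopressin action is overridden by excess water. None of the 4 members tested was called between water-loaded and control CCD (limma), where 13 of 8492 genes were, 0.153%. Only 1 member, Slc34a1, had an unadjusted p under 0.05 (limma), beside 632 of the 8492 genes. By the exact permutation test 0 members did, with 0.0286 the smallest p that 4 against 4 allows. Slc20a2 was 18.6, 17.0, 11.3 and 8.32 RPKM in water-loaded CCD, against 30.4, 20.2, 21.9 and 16.9 RPKM in control CCD, a log2 difference of -0.69 ± 0.37 (limma, adjusted p = 0.733; exact permutation p = 0.0857). Slc20a1 was 11.8, 8.81, 7.97 and 9.92 RPKM in water-loaded CCD, against 0.907, 11.8, 6.63 and 7.36 RPKM in control CCD (+0.74 ± 0.54, limma, adjusted p = 0.82). The groups overlapped for both genes. Taken by number, water-loaded CCD was lower for Slc20a2 in 4 of 4 pairs and higher for Slc20a1 in 3 of 4 (exact paired permutation p = 0.125 and 0.375, where 0.125 is the smallest that 4 pairs allow); with the replicate block the adjusted p was 0.468 and 0.633 (limma).

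Slc34a1 was 0.338, 0.0488, 0.305 and 2.67 RPKM in water-loaded CCD, against 237, 0.673, 6.78 and 2.83 RPKM in control CCD (log2 difference -2.70 ± 1.13, limma, adjusted p = 0.636). Water-loaded CCD was lower in 4 of 4 pairs (exact paired permutation p = 0.125; limma with the replicate block, adjusted p = 0.345). Control library 1 alone was high. Of the 9 proximal markers, it also held the most Slc22a6, with 45.8 RPKM. The other 7 libraries held at most 1.97 RPKM of Slc22a6 in water-loaded CCD and 0.642 RPKM in control CCD. Slc22a8, Slc3a1, Lrp2, Cubn and Slc5a12 were also highest in control library 1. Slc5a2 was lowest there, at 3.80 RPKM. Slc7a13 and Slc5a1 were higher in control library 3 (5.79 and 0.629 RPKM, against 1.69 and 0 RPKM). The part of proximal cells in these values was not tested. Fgfr1 differed by -0.09 (limma, adjusted p = 0.994). Slc34a2 was listed at 0 in all 8 libraries, and Kl, at 0 to 1.79 RPKM in water-loaded CCD and 0.00333 to 1.25 RPKM in control CCD, did not pass the filter.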

How the data were processed

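RNA from microdissected tubules was sequenced as paired reads of 50 nt with a protocol made for single cells, with no count of molecules, per the labels' protocols. Per the submitters' processing notes, reads were handled with STAR 2.3.0-r192, Trimmomatic 0.32, HOMER and SAMtools, with rn5 as the build. No source used here gives the order or settings of these tools. The authors deposited RPKM values per RefSeq transcript in a table with and a table without polyadenylation-site data, and in a table of the water-load experiment. Each holds 17144 symbols, of which 503 have over 1 transcript and none is a member. The 7 whole-kidney samples for polyadenylation sites were not analysed here.

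Values were tested as log2(RPKM + 1) with limma 3.58.1 (limma-trend, R 4.3.3) over all tubule libraries in 1 fit, for genes at 1 RPKM or more in at least 4 libraries. P-values were adjusted by Benjamini and Hochberg over all genes tested in each comparison. A call needed an adjusted p under 0.05 and a log2 difference of at least 1 (no size limit for the water load). Zone comparisons weighted segments equally. Exact permutation tests were two-sided. The fits were tested on simulated data. Figures used Python 3.11.15 and matplotlib 3.10.9. The members, lists, named genes (every member, the 5 genes most alike to each and the regulation genes that were called) and tests were chosen with earlier results of these data known. Alternatives were a pseudocount of 0.1, no filter, the other table, quantile normalization, a replicate block, detected genes as a covariate, leaving out libraries, all transcripts, segments fitted alone and exact tests.

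In the water-load experiment, same-numbered libraries deviated together (correlations of 0.208 to 0.314 over 4 pairs), so the numbers were taken to pair them, from the data and not from the labels.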

Additional observations from a re-analysis of the deposited data

Results flagged for a closer look

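Of 108 groups of 4 to 10 libraries, 26 had a library whose gap to the nearest other exceeded the 95% limit of Dixon's test; chance flags about 1 in 20 groups, and in 10 of the 26 the whole group spanned less than 1 on the log2 scale. The high values at 1 RPKM or more were as follows. Slc34a1 was 286 RPKM in OMCD library 7. Slc34a2 was 66.0 RPKM in mTAL library 5. Slc34a3 was 204 RPKM in S3 library 5, 15 RPKM in SDL library 1 and 3.27 RPKM in IMCD library 5. Slc20a1 was 32.3 RPKM in LDLOM library 7, 9.21 RPKM in OMCD library 5 and 44.4 RPKM in glomerulus library 2. Slc20a2 was 51.2 RPKM in LDLIM library 4, 11.0 RPKM in mTAL library 7 and 6.45 RPKM in OMCD library 5. Kl was 358 RPKM in LDLOM library 1, 17.1 RPKM in tAL library 1 and 15.7 RPKM in SDL library 8. Fgfr1 was 4.83 RPKM in OMCD library 5, which stood apart for 4 members.

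The remaining flags concern values under 1 RPKM. Slc34a1 was 0.198 RPKM in LDLIM library 4 and 0.0241 RPKM in tAL library 2. Slc34a2 was 0.263 RPKM in S1 library 1, 0.282 RPKM in OMCD library 5 and 0.0821 RPKM in IMCD library 5. Slc34a3 was 0.367 RPKM in mTAL library 4, 0.201 RPKM in CNT library 6, 0.224 RPKM in water-loaded CCD library 3 and 0.845 RPKM in control CCD library 1. Below the rest of their groups lay Slc20a2 in glomerulus library 2 (0.325 RPKM) and Fgfr1 in control CCD library 2 (0.646 RPKM).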

How the results depend on the processing

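Slc34a1 and Slc34a3 were the 2 members called in the proximal comparison under all 11 alternatives and with each of 86 libraries left out in turn, those of CCD and IMCD excepted. Leaving out single libraries of SDL, LDLOM, tAL, mTAL and OMCD, leaving out libraries with proximal markers, leaving out tAL libraries 1 and 2, pairing the water-load libraries by number, and the alternatives for the order of levels were chosen after seeing the data. For DCT and CNT the count of 2 fell to 1 in the table without sites and to 1 with the exact test over segment means. For neighbouring segments the count of 5 was 3 with quantile normalization, 3 with detected genes as covariate, 3 with both segments fitted alone, 12 with exact tests that were not adjusted, and 4 to 7 over libraries left out. For S3 against S1 the count of 1 fell to 0 with both segments fitted alone. In the order of levels 1 to 2 steps were called over libraries left out, with 2 without S1 library 3, S2 library 6 or S3 library 5. The causes were not tested.

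Under quantile normalization 15 of 112 member values took another sign, none of them called, and Slc20a1 for LDLIM against LDLOM moved most, to -0.20, against 1.42 without it. Of the values followed under every alternative, directions reversed for these, none of which had passed the test. In the table without sites these were Kl in the proximal tubule (-0.10), Kl for CCD against CNT (0.16) and Fgfr1 in the proximal tubule (-0.40; -0.24 without libraries under 2500 genes; -0.19 to 0.28 over libraries left out). Under quantile normalization Fgfr1 in DCT and CNT was -0.045 and Slc20a2 for S3 against S1 was 0.36 (-0.53 to 0.035 over libraries left out). Fgfr1 for S3 against S1 was 0.024 without libraries under 2500 genes (-1.55 to 0.024 over libraries left out), and Fgfr1 under water load ranged from -0.46 to 0.30 over libraries left out.

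With the replicate block, the count was 2 in the proximal comparison, 2 in DCT and CNT, 6 between neighbours (Slc34a2 for tAL against LDLIM in addition), 1 for S3 against S1, 1 in the order of levels and 0 under water load. In no comparison of segments did every same-numbered pair deviate together (correlation over 0.1), so the numbers were not taken to pair libraries there. Single pairs reached 0.724 for S2 against S1 and 0.625 for DCT against cTAL, beside medians of 0.0049 and 0.1. Whether such pairs share a rat or a batch was not tested. Depth in reads is unknown, and values under 1 RPKM in libraries with few genes cannot show whether a transcript was absent.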
